A study of Arabidopsis thaliana with 44 samples.

Results

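Transcripts of 10 photoperiod and clock-output genes were followed in Arabidopsis thaliana shoots of WT and of 3 chromatin mutants, pie1-5, pkl-1 and clf-28. These genes were listed by name, with earlier results of these data known: GIGANTEA (GI, AT1G22770), the F-box blue-light receptors FKF1 (AT1G68050), ZTL (AT5G57360) and LKP2 (AT2G18915), the DOF transcription factors CDF1 (AT5G62430), CDF2 (AT5G39660), CDF3 (AT3G47500) and CDF5 (AT1G69570), and the cold-regulated genes COR27 (AT5G42900) and COR28 (AT4G33980). They are 10 of the 33341 genes in the deposited count table, and all 10 passed the filter on low counts that left 20375 genes for testing. All plants were 3 weeks old and had grown in soil under 16 h of light per day. The PKL protein remodels chromatin and belongs to the CHD3 class. CLF is a Polycomb enzyme that methylates lysine 27 of histone H3, and PIE1 is the ATPase of the SWR1 complex, which puts the histone variant H2A.Z into chromatin. Each of the 4 genotypes had 3 RNA-seq libraries and 2 chromatin immunoprecipitation (ChIP) libraries per mark, described by the submitters as independent biological replicates. The WT libraries are the common control of all 3 mutants, so the 3 comparisons with WT are not independent of each other.

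In Arabidopsis, GI and FKF1 form a complex in blue light that marks CDF proteins for degradation in the afternoon of long days. CDF proteins repress CONSTANS (CO) and FLOWERING LOCUS T (FT), so their loss lets FT, the florigen gene, be transcribed and flowering begin. ZTL and LKP2 are close relatives of FKF1, and ZTL targets the clock proteins TOC1 and PRR5 for degradation. COR27 and COR28 respond to cold and to the clock and repress clock genes. Transcripts of most of these genes cycle daily: CDF1 is high early in the day, while GI, FKF1, COR27 and COR28 are high late in the day. The labels give no time of day at which shoots were collected, so genotype and time of collection cannot be told apart in any comparison below.

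RNA-seq libraries held 21588609 to 33057306 reads over genes. PKL stood at 15.2 to 17.7 CPM (reads scaled to library size with a TMM factor) in WT and at 29.0 to 35.2 CPM in the libraries labelled pkl-1, and CLF at 2.72 to 5.99 CPM in WT and 22.8 to 34.2 CPM in those labelled clf-28, so these transcripts, called higher in their own mutants, do not check the labels. PIE1 stood at 6.86 to 10.1 CPM in WT and at 3.73 to 5.69 CPM in the libraries labelled pie1-5. This difference was not called (smallest edgeR adjusted p of the 3 targeted genes in pie1-5, 0.0565), also without pie1-5 replicate 1 (0.0955). All 3 targeted genes overlap other annotated genes. The 5 leaf mesophyll markers summed to 10381 to 13385 CPM in every library. Of 5 root markers, EXPA7 and RHS18 were at 0 reads in all 12 libraries, COBL9 had at most 2 reads in a genotype, CASP1 stood at 0 to 0.746 CPM, and PYK10, which overlaps another gene, made up nearly all of the root sum of 22.7 to 70.1 CPM. PYK10 was called higher in pkl-1 (edgeR adjusted p = 0.00987) and pie1-5 (0.00149). The 4 flower markers summed to 0.764 to 8.47 CPM, with the highest sum in pie1-5 replicate 2 and AP3 called higher in pie1-5 (0.0316). The part of these markers in the results below was not tested. In shoots as a whole, fewer cells of a type and less RNA per cell cannot be told apart.

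One library stood apart for these genes. In pie1-5 replicate 1, FKF1, COR27 and COR28 were within the range of the WT libraries and CDF1 and CDF2 were above it, whereas in pie1-5 replicates 2 and 3 the first 3 genes were above and the CDF genes below the WT range, as in pkl-1 and clf-28. PIE1 itself was at 3.73 CPM in pie1-5 replicate 1, the lowest of the 12 libraries. This library also had the highest summed level of a list of morning clock genes, as described further on. Counts of the RNA-seq calls among the 10 genes and in the clock, photoperiod and cold lists are therefore given with all 12 libraries and again without pie1-5 replicate 1, a choice made after its values were seen. Because all libraries share 1 fit and 1 estimate of spread, leaving it out also changes the p-values of pkl-1 and clf-28.

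**Figure D1:**
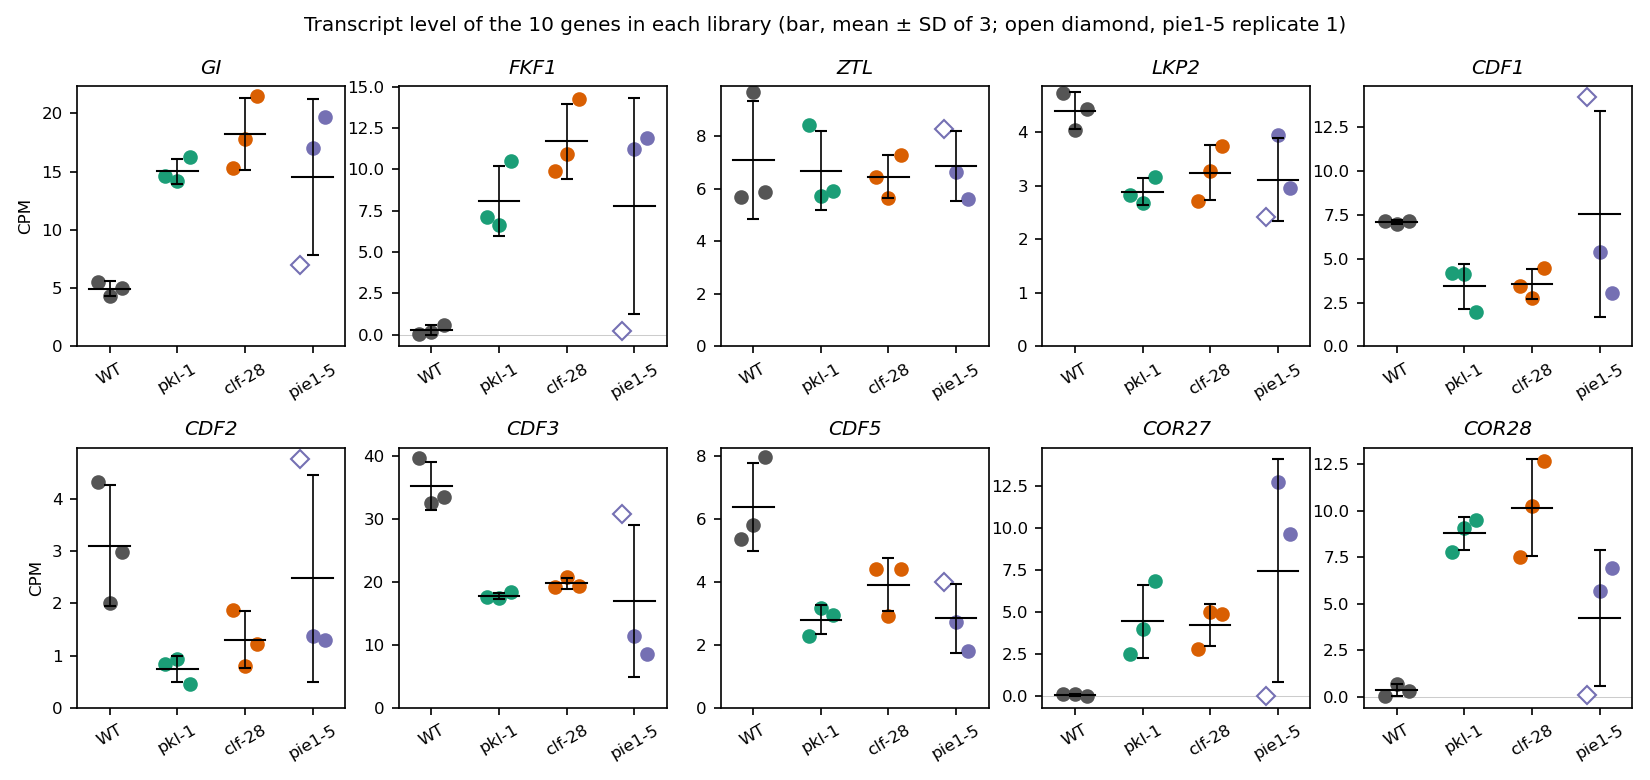
Transcript level in CPM (vertical axes, linear, 1 scale per gene) of the 10 genes in each of the 12 RNA-seq libraries, grouped by genotype. Points are libraries, bars the mean ± SD of 3, and the open diamond is pie1-5 replicate 1. GI, FKF1, COR27 and COR28 sit low in WT and high in pkl-1, clf-28 and pie1-5 replicates 2 and 3, while pie1-5 replicate 1 lies at 7.00 CPM for GI and at 0.249 CPM or below for the other three.

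In pkl-1, 4 of the 10 genes rose (GI, FKF1, COR27 and COR28) and 2 fell (CDF2 and CDF5). Over all tested genes, 4.03% were called in pkl-1, 1.45% higher and 2.58% lower. In clf-28 the same 4 rose and none fell, against 2.15% of all genes called, 0.918% higher and 1.23% lower. In pie1-5 the same 4 rose and CDF5 fell, against 7.36% of all genes called, 3.8% higher and 3.56% lower. A gene was called where edgeR's quasi-likelihood test gave a Benjamini-Hochberg adjusted p below 0.05 over all tested genes. Without pie1-5 replicate 1, 4 rose and 4 fell in pkl-1, 4 rose and 1 fell in clf-28, and 4 rose and 2 fell in pie1-5, against 8.13%, 5.02% and 9.64% of all genes called. With only the WT and pie1-5 libraries in the fit, COR27 did not pass the filter on low counts and none of the other 9 passed the threshold in pie1-5 (edgeR, 2.63% of all genes called), whereas DESeq2 on all libraries called 6 (11%). Leaving out another library of the 2 genotypes compared gave 3 to 4 calls in pkl-1 (3 without WT 1, WT 3 or pkl-1 3). It gave 2 to 3 in clf-28 (2 without WT 3), and 3 to 4 in pie1-5 (3 without WT 3, pie1-5 2 or pie1-5 3). Over all genes these fits called 1.97% to 2.85% in pkl-1, 0.808% to 1.59% in clf-28 and 3.58% to 5.33% in pie1-5.

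GI, the scaffold protein of the complex, measured 5.55, 4.32 and 5.05 CPM across the WT libraries. It stood at 14.7, 14.2 and 16.3 CPM in pkl-1, at 15.3, 17.8 and 21.5 CPM in clf-28, and at 7.00, 17.0 and 19.7 CPM in pie1-5. Every mutant library was above every WT library, with pie1-5 replicate 1 nearest to WT. For comparison, 12.1% of all tested genes had every pkl-1 library above every WT library, 10.5% every clf-28 library and 12.9% every pie1-5 library. The rise was 3.03-fold in pkl-1 (log2 fold change 1.60 ± 0.29 SE, n = 3, edgeR adjusted p = 0.00489), 3.67-fold in clf-28 (1.87 ± 0.29, 0.00294) and 2.93-fold in pie1-5 (1.55 ± 0.29, 0.00513). By mean level the order was clf-28 (18.2 ± 3.10 CPM, SD), pkl-1 (15.1 ± 1.07), pie1-5 (14.6 ± 6.70) and WT (4.98 ± 0.617), and the 3 mutants overlapped. GI kept its call in all 3 mutants when any 1 library of the 2 genotypes compared, or pie1-5 replicate 1, was left out. The pie1-5 call was lost only in the fit of the 2 genotypes alone (edgeR adjusted p = 0.0543).

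FKF1, the photoreceptor that brings blue light to that complex, was close to undetected in WT. It gave 2, 6 and 14 reads there, or 0.0750, 0.185 and 0.615 CPM. In pkl-1 it stood at 7.11, 6.63 and 10.5 CPM, and in clf-28 at 9.90, 10.9 and 14.3 CPM. The pie1-5 libraries split: replicate 1 gave 8 reads (0.249 CPM), inside the WT range, and replicates 2 and 3 gave 11.2 and 11.9 CPM. FKF1 thus rose 28.9-fold in pkl-1 (4.85 ± 0.94, edgeR adjusted p = 0.00707), 41.9-fold in clf-28 (5.39 ± 0.94, 0.00617) and 27.8-fold in pie1-5 (4.80 ± 0.94, 0.00650). With that library left out the pie1-5 value was 41.6-fold (5.38 ± 0.41, 1.12e-07). Folds against so few WT reads move with single WT libraries: without WT 3, which holds 14 of the 22 WT reads, they were 58.2-fold in pkl-1, 84.8-fold in clf-28 and 56.2-fold in pie1-5, all still called. The pie1-5 call was lost when only the 2 genotypes were fitted (edgeR adjusted p = 0.0694).

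FKF1 overlaps MAP70-1 (AT1G68060), a gene for a microtubule-associated protein, and without strand information, which the kit does not keep, reads of the overlap cannot be told apart. MAP70-1 stood at 8.14 to 11.1 CPM in WT, 12.9 to 15.7 in pkl-1, 15.5 to 16.1 in clf-28 and 8.40 to 13.1 in pie1-5, and was not called in any mutant (smallest edgeR adjusted p = 0.121, in clf-28).

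ZTL and LKP2, the relatives of FKF1, were not called in any mutant. ZTL stood at 5.70, 9.67 and 5.89 CPM in WT, and its 9 mutant libraries ranged from 5.62 to 8.44 CPM, inside the WT span except at its lower edge. Its fitted differences were small in pkl-1 (log2 -0.09 ± 0.25), clf-28 (-0.13 ± 0.25) and pie1-5 (-0.05 ± 0.25), with edgeR adjusted p of 0.906, 0.885 and 0.935, and their sign turned when WT 2, the high library, was left out (0.20, 0.16 and 0.24). LKP2 stood at 4.73, 4.05 and 4.44 CPM in WT. Its levels were 2.83, 2.67 and 3.17 CPM in pkl-1, 2.72, 3.28 and 3.74 CPM in clf-28, with pie1-5 at 2.43, 3.95 and 2.97 CPM. All 9 mutant libraries were below all WT libraries, which holds for 13.2% of all tested genes in pkl-1, 10.8% in clf-28 and 12.7% in pie1-5. The differences of log2 -0.61 ± 0.26, -0.44 ± 0.26 and -0.50 ± 0.26 did not pass the test (edgeR adjusted p = 0.232, 0.498 and 0.269). LKP2 overlaps the long noncoding RNA gene AT2G18917, which had at most 8 reads in a genotype and was not tested.

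The 4 CDF genes, whose proteins are the repressors degraded through FKF1 and GI, were lower in pkl-1 and clf-28 than in WT in every library, but only part of these differences passed the test. Every library lay below every WT library for 13.2% of all tested genes in pkl-1 and 10.8% in clf-28. CDF1 stood at 7.16, 6.95 and 7.16 CPM in WT. It stood at 4.2, 4.15 and 1.95 CPM in pkl-1 and at 3.46, 2.73 and 4.46 CPM in clf-28. In pie1-5 it stood at 14.2, 5.38 and 3.03 CPM, so that replicate 1 was the highest and replicates 2 and 3 were below WT. With all 12 libraries CDF1 was not called (log2 -1.05 ± 0.43 in pkl-1, edgeR adjusted p = 0.221; -0.99 ± 0.43 in clf-28, 0.324; 0.09 ± 0.42 in pie1-5, 0.931). Without pie1-5 replicate 1, CDF1 was called lower in pkl-1 (2.07-fold, edgeR adjusted p = 0.0347) and not in clf-28 (0.0659), and the pie1-5 value turned to -0.75 ± 0.34 and was not called (0.18). Fitting only the 2 genotypes called CDF1 lower in pkl-1 (edgeR adjusted p = 0.0382) and clf-28 (0.0294), as did no filter on low counts (0.00796 and 0.0223).

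CDF2 behaved in the same way at a lower read count. It stood at 4.31, 2.01 and 2.99 CPM in WT, at 0.839, 0.943 and 0.458 CPM in pkl-1 and at 1.88, 0.795 and 1.23 CPM in clf-28. The pie1-5 libraries stood at 4.76, 1.37 and 1.3 CPM, with replicate 1 above the WT range. CDF2 fell 4.12-fold in pkl-1 (log2 -2.04 ± 0.54, edgeR adjusted p = 0.0448). That call was lost when WT 1, WT 3 or any one of the pkl-1 libraries was left out (edgeR adjusted p up to 0.164) and held without pie1-5 replicate 1 (0.00582). In clf-28 (-1.24 ± 0.52, 0.293) and pie1-5 (-0.32 ± 0.50, 0.764) it was not called, also without pie1-5 replicate 1 (0.116 and 0.133 by edgeR).

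CDF3 stood at 39.6, 32.6 and 33.4 CPM in WT. Its replicates were close together in pkl-1 (17.6, 17.5 and 18.4 CPM) and clf-28 (19.3, 20.8 and 19.3 CPM). In pie1-5 it stood at 30.8, 11.5 and 8.59 CPM, all below WT but with replicate 1 only just so. With all 12 libraries it missed the threshold in each mutant (log2 -0.98 ± 0.32, -0.83 ± 0.32 and -1.05 ± 0.32; edgeR adjusted p = 0.109, 0.248 and 0.0604). Without pie1-5 replicate 1 it was called in all 3, 1.98-fold lower in pkl-1 (edgeR adjusted p = 3.05e-04), 1.77-fold lower in clf-28 (0.00222) and 3.5-fold lower in pie1-5 (2.85e-06). Fitting only the 2 genotypes also called CDF3 in pkl-1 and clf-28, where pie1-5 does not enter the spread. No filter on low counts called it in all 3 mutants, and DESeq2 and the replicate block in pie1-5.

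CDF5 stood at 5.36, 5.81 and 7.95 CPM in WT and was the 1 CDF gene below WT in pie1-5 replicate 1 by more than a small margin. It stood at 2.30, 3.17 and 2.94 CPM in pkl-1, at 4.40, 2.93 and 4.41 CPM in clf-28, and at 3.98, 2.74 and 1.81 CPM in pie1-5. Every mutant library was below every WT library, which holds for 13.2% of all tested genes in pkl-1, 10.8% in clf-28 and 12.7% in pie1-5. CDF5 fell 2.26-fold in pkl-1 (log2 -1.18 ± 0.30, edgeR adjusted p = 0.0400) and 2.23-fold in pie1-5 (-1.16 ± 0.30, 0.0291), and was not called in clf-28 (-0.69 ± 0.30, 0.314). The pkl-1 call was lost without any 1 of the 6 WT and pkl-1 libraries (up to 0.176) and with the replicate block (edgeR adjusted p = 0.0613). The pie1-5 call was lost without WT 2, WT 3, pie1-5 2 or pie1-5 3 (up to 0.123) and with the 2 genotypes alone (0.0975). Both calls held without pie1-5 replicate 1 (edgeR adjusted p = 0.00967 and 0.00546). CDF5 overlaps the long noncoding RNA gene AT1G69572, at 0.154 to 1.1 CPM in WT, 0.974 to 1.49 in pkl-1, 0.348 to 1.34 in clf-28 and 0 to 0.886 in pie1-5, which was not called.

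COR27 had 3, 4 and 0 reads in the WT libraries, or 0.113, 0.124 and 0 CPM, where 3 reads in the WT library with none would be 0.132 CPM. It had 57, 128 and 179 reads in pkl-1 (2.52, 4.02 and 6.83 CPM) and 87, 101 and 184 in clf-28 (2.81, 5.02 and 4.91 CPM). The pie1-5 libraries held both extremes, with 0 reads in replicate 1 and 400 and 283 reads (12.7 and 9.65 CPM) in replicates 2 and 3. COR27 rose 50.3-fold in pkl-1 (log2 5.65 ± 1.3, edgeR adjusted p = 0.0221), 47.7-fold in clf-28 (5.58 ± 1.3, 0.0338) and 83.9-fold in pie1-5 (6.39 ± 1.29, 0.00800). These folds rest on 7 WT reads in all. The pie1-5 value was 125.8-fold without pie1-5 replicate 1 (6.98 ± 0.54, 1.41e-07), and without pie1-5 2 it was 54.2-fold (0.0204). The pkl-1 call was lost without any WT library or pkl-1 3 (up to 0.0992), and the clf-28 call without any 1 of its 6 libraries (up to 0.139). In pie1-5 the call held without any 1 WT or pie1-5 library.

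COR28, the close relative of COR27, gave 32 reads in WT (0.0750, 0.710 and 0.308 CPM). It stood at 7.82, 9.08 and 9.51 CPM in pkl-1 and at 7.5, 10.3 and 12.7 CPM in clf-28. In pie1-5 it stood at 0.0934 CPM in replicate 1, inside the WT range, and at 5.70 and 6.95 CPM in replicates 2 and 3. COR28 rose 22.9-fold in pkl-1 (log2 4.52 ± 0.88, edgeR adjusted p = 0.00743), 26.5-fold in clf-28 (4.73 ± 0.88, 0.00952) and 11-fold in pie1-5 (3.47 ± 0.87, 0.0247). Every pie1-5 library lay below every pkl-1 and clf-28 library, which holds for 14.7% and 13.9% of all tested genes, though COR28 was called in neither comparison (log2 1.05 ± 0.70 and 1.26 ± 0.70, edgeR adjusted p = 0.373 and 0.295). For COR27, pie1-5 2 and 3 were instead the highest of the 12 libraries. Without WT 2, the WT library with most COR28 reads, the folds were 46.7, 54.0 and 22.5, all called. The clf-28 call was lost without WT 3 (0.0560), and the pie1-5 call without WT 1, WT 3, pie1-5 2 or pie1-5 3 (up to 0.0943) and with the 2 genotypes alone (0.143), whereas without pie1-5 replicate 1 it was 16.4-fold (2.88e-06 by edgeR).

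**Figure D2:**
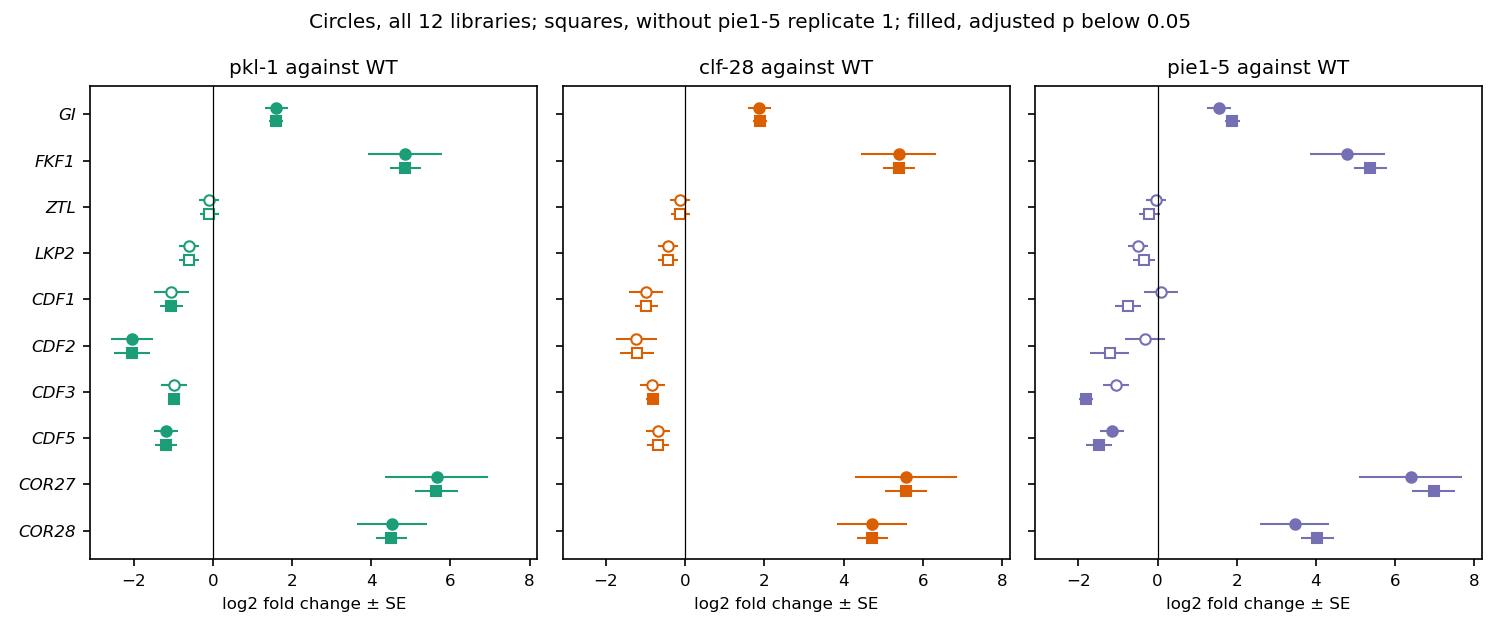
Fitted log2 fold change ± SE (horizontal axes) of each gene in pkl-1, clf-28 and pie1-5 against WT, with all 12 libraries (circles) and without pie1-5 replicate 1 (squares). Filled symbols are called. GI, FKF1, COR27 and COR28 are filled in every panel, from 1.55 for GI to 6.98 for COR27, and CDF3 turns from open to filled in all 3 panels when that library is left out.

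All 10 genes are listed in the authors' deposited table, made with edgeR. At an edgeR adjusted p below 0.05 the authors' deposited table has 4 higher and 2 lower in pkl-1, 3 higher and none lower in clf-28, where COR27 is at 0.0509, and 4 higher and 2 lower in pie1-5, where CDF3 (log2 fold change -1.05, adjusted p = 0.0397) joins CDF5.

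The mutants were also compared with each other, which does not involve WT. None of the 10 genes was called between pkl-1 and pie1-5, clf-28 and pie1-5, or pkl-1 and clf-28 (edgeR, 2, 1 and 0 at an unadjusted p below 0.05; DESeq2 called 1, 0 and 0), against 11%, 8.76% and 2.73% of all tested genes. The smallest adjusted p was that of CDF2 in pkl-1 against pie1-5 (log2 -1.72 ± 0.54, edgeR adjusted p = 0.0508), followed by CDF1 in the same pair (-1.14 ± 0.43, 0.107). CDF2 passed the threshold with DESeq2, with its size factors in edgeR, with the replicate block, with no filter on low counts, without organelle genes, and without pie1-5 2 or pie1-5 3. It did not pass without pie1-5 replicate 1, the library in which it was highest. Without that library 2 of the 10 genes were called in pkl-1 against pie1-5 and 2 in clf-28 against pie1-5, 1 in each direction, against 11.2% and 9.38% of all genes. The differences of FKF1 (0.05 ± 0.69 in pkl-1 against pie1-5, and -0.54 ± 0.69 in pkl-1 against clf-28) had errors wide enough to hold a change of more than 1.5 times either way.

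Clock genes were measured beside the 10 genes in a list of 12 morning genes, which includes the transcription factors CCA1 and LHY, and a list of 7 evening genes, which includes TOC1 and the evening complex genes LUX, ELF3 and ELF4. The summed level of the morning list was 174 to 182 CPM in WT, 105 to 120 in pkl-1 and 111 to 139 in clf-28, with 383, 75.2 and 76.8 CPM in pie1-5 replicates 1, 2 and 3. The evening list ran the other way, at 29.3 to 33.5 CPM in WT, 98.8 to 114 in pkl-1 and 97.2 to 139 in clf-28, with 18.9, 90.6 and 96.8 CPM in pie1-5. On both lists pie1-5 replicate 1 lay beyond the WT libraries, on the side away from the other mutant libraries. CCA1 stood at 4.80 to 7.25 CPM in WT, 1.15 to 2.29 in pkl-1 and 2.22 to 2.36 in clf-28, with 44.1, 1.53 and 1.36 CPM in pie1-5. LHY, its close relative, stood at 2.99 to 3.95 CPM in WT, 0.954 to 1.32 in pkl-1 and 0.774 to 1.04 in clf-28, with 59.6, 0.573 and 1.16 CPM in pie1-5. Not every gene of the lists did so: PRR7, a morning gene, was lowest in that library, at 12.9 CPM against 26.7 to 59.5 CPM in the other 11. Among the 10 genes, CDF1 and CDF2 were also above WT in pie1-5 replicate 1, while CDF3 and CDF5 were below it, FKF1, COR27 and COR28 were in the WT range and GI was above it. ZTL and LKP2 showed no such split between pie1-5 libraries. The part of the clock state of the plants in these results was not tested.

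**Figure D3:**
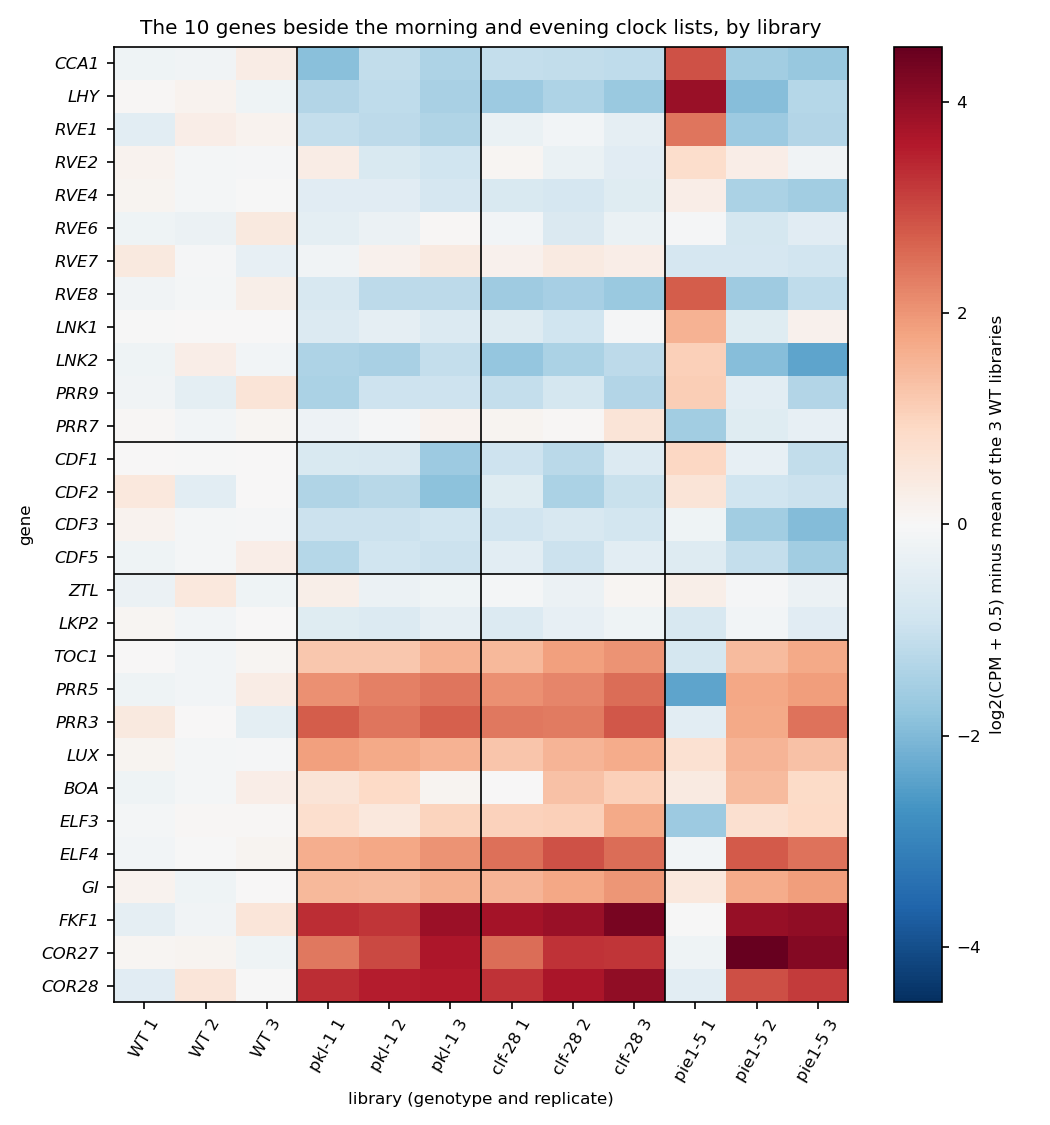
Level of each gene in each of the 12 libraries as log2(CPM + 0.5) minus the mean of the 3 WT libraries (color scale), with all 12 morning clock genes at the top, then the 4 CDF genes, ZTL and LKP2, all 7 evening clock genes, and GI, FKF1, COR27 and COR28. The pie1-5 replicate 1 column is high for CCA1 (44.1 CPM) and LHY (59.6 CPM) and near WT for FKF1, COR27 and COR28, unlike the other 8 mutant columns.

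By the test, none of the 12 morning genes was called in pkl-1 or clf-28 (edgeR, 2 and 3 at an unadjusted p below 0.05) and 1 of 12 was lower in pie1-5. The medians were log2 -0.91, -0.59 and 0.28, beside 0.01, -0.00 and 0.01 over all tested genes. Of all tested genes, 4.03% were called in pkl-1, 2.15% in clf-28 and 7.36% in pie1-5. CCA1 (edgeR adjusted p = 0.369, 0.583 and 0.336) and LHY (0.488, 0.464 and 0.157) were not called in pkl-1, clf-28 or pie1-5. RVE7, a CCA1-related gene, fell 1.85-fold in pie1-5 (edgeR adjusted p = 0.0271), a call lost without WT 1, WT 2, pie1-5 2 or pie1-5 3 (up to 0.137) or with the 2 genotypes alone, and held without pie1-5 1 (0.0254). Without pie1-5 replicate 1, 4.66%, 2.74% and 4.68% of all genes were called lower in pkl-1, clf-28 and pie1-5. Of the morning genes, 7 were called lower in pkl-1, 5 in clf-28 and 7 in pie1-5, and none higher. CCA1 was among them in all 3 (log2 -1.68, -1.29 and -1.96; edgeR adjusted p = 0.00129, 0.0138 and 0.00149), as was LHY (-1.65, -2.04 and -2.03; 0.00946, 0.00307 and 0.00678).

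Of the 7 evening genes, 3 rose in pkl-1, 4 in clf-28 and 2 in pie1-5, and none fell, with medians of log2 1.79, 2.10 and 1.31. Over all tested genes, 1.45%, 0.918% and 3.8% were called higher. LUX, a DNA-binding member of the evening complex, rose in pkl-1 (3.46-fold, edgeR adjusted p = 2.21e-04), clf-28 (2.96-fold, 0.00129) and pie1-5 (2.44-fold, 0.00252). These calls held without any 1 library of the 2 genotypes compared, though LUX overlaps another gene. Its level was 6.02 to 7.01 CPM in WT and 10.6 CPM in pie1-5 replicate 1, where it was between WT and the other 8 mutant libraries (15.8 to 24.2 CPM). ELF4, another member of that complex, gave 3 reads in all of WT, and 1.19 to 1.68 CPM in pkl-1 and 2.49 to 3.43 in clf-28, with 0, 3.15 and 2.45 CPM in pie1-5. It was called higher in all 3 mutants (edgeR adjusted p = 0.0288, 0.0142 and 0.0130), but the pkl-1 call was lost without any 1 of its 6 libraries (up to 0.102), the clf-28 call without any WT library (up to 0.0656) and the pie1-5 call without WT 1 or WT 2 (up to 0.0540). PRR3, a stabilizer of TOC1, rose 12-fold in pkl-1 (0.0128) and 11.2-fold in clf-28 (0.0229). The PRR3 calls were lost without WT 2 or WT 3 in both (up to 0.0681 and 0.111) and without any clf-28 library in clf-28, and the folds were 18.0 and 16.8 without WT 1, both called.

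TOC1, which represses CCA1 and LHY, stood at 7.29 to 8.44 CPM in WT, 19.0 to 24.7 in pkl-1 and 22.9 to 33.7 in clf-28, with 4.36, 22.5 and 26.9 CPM in pie1-5. It rose 3.64-fold in clf-28 (edgeR adjusted p = 0.0286), a call lost without any 1 of the 6 libraries (up to 0.128), and was not called in pkl-1 (0.0760) or pie1-5 (0.103). Without pie1-5 replicate 1, 6 of the 7 evening genes, all but BOA, were called higher in each mutant, TOC1 among them (edgeR adjusted p = 3.24e-05, 1.87e-06 and 1.44e-05). That fit called 3.47%, 2.28% and 4.96% of all genes higher in pkl-1, clf-28 and pie1-5.

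Of 24 other genes of the photoperiod pathway, 23 were tested, and 1 fell in pkl-1, 1 rose in clf-28, and 1 rose and 2 fell in pie1-5. The medians were log2 -0.20, -0.01 and 0.06. Over all tested genes, 1.45%, 0.918% and 3.8% were called higher and 2.58%, 1.23% and 3.56% lower. When pie1-5 replicate 1 was left out, none rose and 4 fell in pkl-1, 1 rose and 2 fell in clf-28, and 1 rose and 6 fell in pie1-5, against 3.47%, 2.28% and 4.96% of all genes higher and 4.66%, 2.74% and 4.68% lower. The CONSTANS-like genes COL1 (log2 -1.2, -1.68 and -2.52; edgeR adjusted p = 5.81e-05, 1.99e-06 and 1.58e-07) and COL2 (-2.69, -2.45 and -2.89; 3.25e-04, 9.91e-04 and 8.76e-04), singled out after their values were seen, were among those lower in all 3 mutants. In pie1-5 replicate 1 itself they stood at 64.3 and 50.3 CPM, above the highest WT values of 29.8 and 8.48 CPM. Both COL1 and COL2 overlap other annotated genes. FT, the output of the pathway, fell in pkl-1 and rose in clf-28, while GI, FKF1, COR27 and COR28 rose in both. It stood at 0.863, 0.710 and 1.19 CPM in WT, at 0.177, 0.157 and 0.153 CPM in pkl-1, at 5.95, 10.8 and 7.5 CPM in clf-28, and at 0.685, 3.53 and 3.24 CPM in pie1-5. It fell 5.52-fold in pkl-1 (edgeR adjusted p = 0.0324, lost when WT 1, WT 3 or 1 of the pkl-1 libraries was left out, up to 0.115, and with the 2 genotypes alone, 0.0669) and rose 8.82-fold in clf-28 (0.00243). In pie1-5 it was not called (log2 1.44 ± 0.47, 0.0768), with replicate 1 just below the WT libraries. Without that library FT was called higher in pie1-5 (log2 1.89 ± 0.34, edgeR adjusted p = 0.00120), and its calls in pkl-1 (7.49e-04) and clf-28 (3.29e-06) held. CO, the activator of FT, overlaps other genes and was low throughout, with 34 reads in WT, 29 in pkl-1, 3 in clf-28 and 55 in pie1-5, and was not called in any mutant (edgeR adjusted p = 0.884, 0.210 and 0.887).

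In pie1-5, FBH4, an activator of CO transcription that overlaps other genes, fell from 6.41, 8.62 and 9.05 CPM in WT to 2.37, 2.55 and 3.14 CPM (2.99-fold, edgeR adjusted p = 0.00107). PHYA, a phytochrome photoreceptor gene, fell from 34.1, 27.1 and 31.5 CPM to 14.4, 18.9 and 15.6 CPM (1.89-fold, 0.00754). For these 2 genes pie1-5 replicate 1 was with replicates 2 and 3 and not with WT. Both calls held without any 1 WT or pie1-5 library. FBH3, a relative of FBH4, had WT levels of 5.44, 10.04 and 6.72 CPM against 28.7, 11.1 and 12.8 CPM in pie1-5. This 2.37-fold rise (edgeR adjusted p = 0.0268) was a call that was lost without WT 1, WT 3 or pie1-5 1 (up to 0.107) and with the 2 genotypes alone. CDF4, the remaining CDF gene of the list, was at 0.0750 to 0.879 CPM in WT and was not called (edgeR adjusted p = 0.966, 0.605 and 0.702).

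A list of 12 cold-responsive genes, of which 11 were tested, was examined because COR27 and COR28 are cold-regulated. In pkl-1 and clf-28, 2 of the 11 fell and none rose, and in pie1-5, 1 rose and 1 fell, with medians of log2 0.32, -0.61 and 0.17. Over all tested genes, 1.45%, 0.918% and 3.8% were called higher and 2.58%, 1.23% and 3.56% lower. With pie1-5 replicate 1 left out and all 12 tested, 1 rose and 3 fell in pkl-1 and in clf-28, and 1 rose and 1 fell in pie1-5. That fit called 3.47%, 2.28% and 4.96% of all genes higher and 4.66%, 2.74% and 4.68% lower. WT replicate 3 had the highest summed level of the list, 1206 CPM, against 404 and 513 CPM in the other WT libraries and 236 to 624 CPM in the mutants. GOLS3, a galactinol synthase gene of the CBF regulon, fell in pkl-1 (5.85-fold, edgeR adjusted p = 0.00599) and clf-28 (9.91-fold, 0.00243), and without WT 3 these values were 3.29-fold (0.0704, not called) and 5.55-fold (0.0187). RD29A, a dehydration and cold marker, fell 2.85-fold in pkl-1 (0.0451) and 3.33-fold in clf-28 (0.0337), but without WT 3 only 1.44-fold (0.284) and 1.68-fold (0.150), both not called. RD29A also lost its calls without any 1 library of the mutant concerned (up to 0.150 in each) and with the replicate block, and in pkl-1 with DESeq2. COR47 was lower in pie1-5 (2.59-fold, 0.0232), not called without WT 3 (1.71-fold, 0.143) or with the 2 genotypes alone. COR15B, which overlaps another gene, was higher in pie1-5 (5.06-fold, 0.0368), a call lost without WT 1, WT 2, pie1-5 2 or pie1-5 3 (up to 0.133) or with the 2 genotypes alone, and 8.96-fold without WT 3 (0.0256). In the fit without pie1-5 replicate 1, COR15B was the gene called higher in each mutant (log2 1.37, 1.66 and 2.87; edgeR adjusted p = 0.0123, 0.00408 and 2.80e-05). COR47 was then also called lower in pkl-1 (log2 -0.92, edgeR adjusted p = 0.0343), and COR15A in clf-28 (-1.13, 0.0237). CBF2 and CBF3, transcription factor genes that turn on this list, had 10 to 38 reads in a genotype and were not called. CBF1, with 4 reads in WT, 45 in pkl-1, 5 in clf-28 and 10 in pie1-5, was not tested in the main fit. Without pie1-5 replicate 1 it was tested and not called in any mutant (in pkl-1 log2 3.43 ± 1.47, edgeR adjusted p = 0.181). COR27 and COR28 had their lowest WT value or one inside the WT range in WT 3, so they were not among the genes that were high in that library.

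The genes whose levels across the 12 libraries were most like those of GI, FKF1, COR27 and COR28 were sought among 14340 other genes by Pearson correlation of log2 CPM. The 12 points share the 4 genotypes and the pie1-5 split, so the coefficients are descriptions only. For GI they were COL9 (r = 0.97), a CONSTANS-like gene, THIC (0.96) of thiamine synthesis and the metallothionein gene MT2A (0.96). For FKF1 they were AT1G17665 (0.97), MT2A (0.97) and PP2-A12 (0.96). COR27 was most like AT2G38465 (0.99), the clock-regulated RNA-binding protein gene GRP7 (0.98) and the starch branching enzyme gene SBE2.1 (0.98). COR28 was most like the starch degradation gene PWD (0.97), AT1G20030 (0.96) and the B-box gene BBX8 (0.96). GRP7 shows the shared shape at a high level, at 131 to 136 CPM in WT, 932 to 1182 in pkl-1 and 774 to 1007 in clf-28, with 57.5, 1948 and 1467 CPM in pie1-5. MT2A, the gene shared by GI and FKF1, stood at 29.1 to 30.3 CPM in WT, 67.5 to 90.0 CPM in pkl-1 and clf-28, and 29.8, 84.5 and 87.7 CPM in pie1-5.

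Chromatin over the genes was read from the authors' region tables, which set 1 mutant library against WT for each mark, mutant and replicate, with coordinates in TAIR10. H3K27me3 is the Polycomb mark that CLF writes, and H2A.Z is the variant whose deposition needs PIE1. None of the 10 genes overlapped an H3K27me3 region in either pkl-1 table or either pie1-5 table, in which 26.3% to 27.7% of all genes did. Of the 10 genes, 1 had a region in the first clf-28 table and 3 in the second, against 27% and 33.8% of all genes. COR27 had 1 in the replicate 1 table (chr5:17199401-17199800, 9.32 RPM, or reads scaled to the library total, in clf-28 and 4.05 in WT). In the replicate 2 table they were at GI (chr1:8065201-8067200, 32.4 and 3.61 RPM), ZTL (chr5:23243001-23245600, 50.7 and 7.80 RPM) and LKP2 (chr2:8195001-8195800, 17.3 and 2.87 RPM). No region recurred in both clf-28 tables, the mutant values rest on 55 to 161 reads from libraries of 6437840 and 3174679 reads, and both tables hold the same WT library. With no region in both tables, none of these could be tested. Thus no H3K27me3 region over FKF1, COR28 or any CDF gene was listed, in any mutant.

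H2A.Z regions lay over 6 of the 10 genes in both replicate tables of clf-28 and of pie1-5: GI, FKF1, LKP2, CDF1, COR27 and COR28. Among all genes, 69.9% to 74.9% overlapped a region in these 4 tables. In pkl-1 they were 4 of 10 in the replicate 1 table (54.1% of all genes) and 8 of 10 in the replicate 2 table (75.6%). FKF1, CDF1, COR27 and COR28 were in both, and GI, LKP2, CDF2 and CDF5 in the second. ZTL and CDF3 overlapped none in any table. Over GI the region (chr1:8061801-8062600) covered 13.2% of the gene, and over LKP2 9.52% to 16.3%. Over CDF1 (chr5:25069401-25071000) it covered 79.2%, and over COR27 (chr5:17198001-17199800 in the pie1-5 replicate 1 table) 79.3%. The FKF1 region may also hold reads of MAP70-1, and the COR28 region of the pkl-1 replicate 2 table was 6400 bp long and reached past the gene.

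In pie1-5, H2A.Z over the 6 genes was below WT in the replicate 1 table and closer to WT in the replicate 2 table. GI stood at 3.89 RPM in pie1-5 and 15.5 in WT in the first, and at 8.24 and 12.2 RPM in the second. FKF1 stood at 26.0 and 47.6 RPM, then at 29.6 and 38.6 RPM. COR27 stood at 17.9 and 39.4 RPM, then at 31.0 and 45.6 RPM, and its ratios of 0.453 and 0.681 were below 1 in both tables, as were those of CDF1 (0.404 and 0.728). COR28 stood at 9.85 and 31.8 RPM, then at 41.4 and 47.6 RPM, but over regions of 1200 bp and 2800 bp. RPM is not scaled to region length, so the COR28 values of the 2 tables are not those of like regions. The FKF1, COR27 and LKP2 regions also differed in length between the tables, by less. LKP2 had ratios of 0.291 and 1.02, the only one of the 6 not below WT in the replicate 2 table. The fitted differences were log2 -1.18 ± 0.61 for GI, -0.90 ± 0.46 for COR28, -0.83 ± 0.52 for CDF1, -0.81 ± 0.46 for COR27, -0.66 ± 0.56 for LKP2 and -0.61 ± 0.46 for FKF1, beside a median of -0.73 over all 14570 paired regions.

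None of the 6 was called in pie1-5 (edgeR adjusted p from 0.276 to 0.317, 0 at an unadjusted p below 0.05), against 0.0206% of all regions. Without pie1-5 2 all 6 passed the threshold (GI log2 -1.83, edgeR adjusted p = 0.00276), as did 95.1% of all regions, a fit in which pie1-5 has 1 library that is assumed to vary like the WT libraries. Per-table medians over all regions were log2 -1.10 and -0.41, computed with a small constant added to both RPM values. In the replicate 1 table only FKF1 (-0.87) lay above the median, and GI, LKP2, COR28, CDF1 and COR27 lay below it. In the replicate 2 table GI, COR27 and CDF1 lay below the median and FKF1, LKP2 and COR28 above it. With regions scaled by TMM, which removes a shift common to all regions, FKF1 (0.17) and LKP2 (0.02) turned positive in pie1-5 and GI was at -0.47, none called. The ChIP replicate numbers are not tied by the labels to RNA-seq replicate numbers, so the library that stood apart in RNA-seq cannot be matched to a ChIP library.

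**Figure D4:**
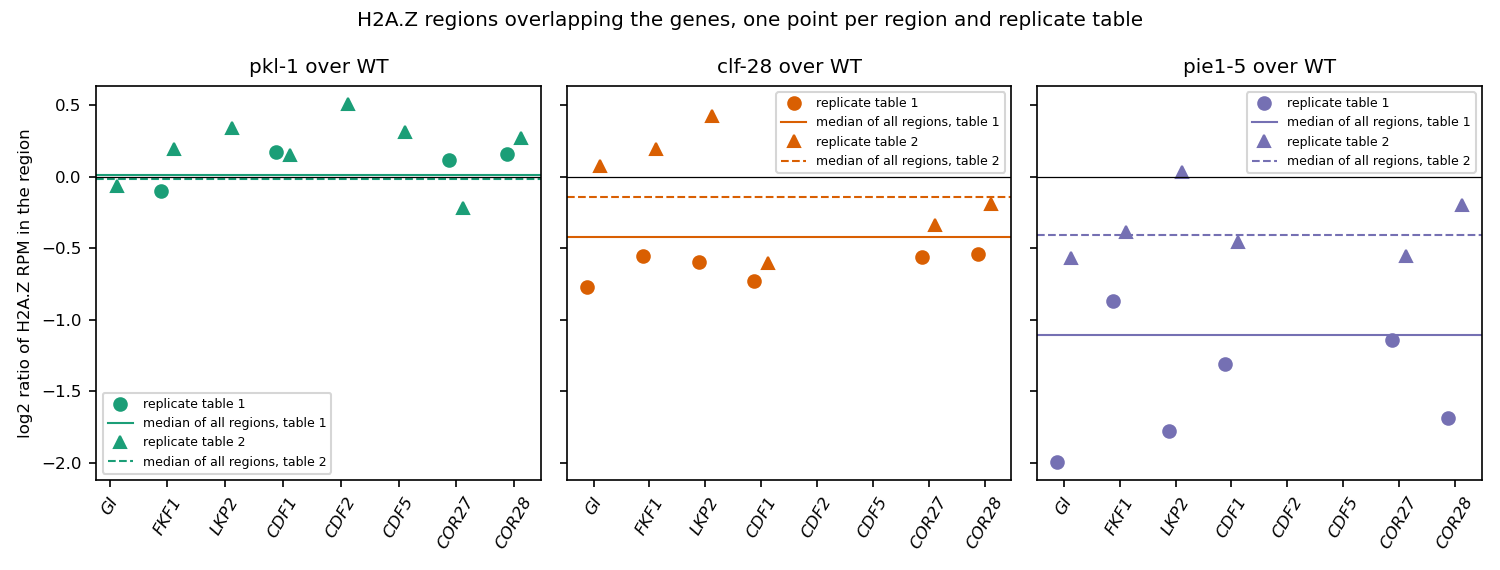
Log2 ratio of H2A.Z RPM, mutant over WT (vertical axis), in each region that overlaps one of the genes, for the replicate 1 table (circles) and the replicate 2 table (triangles). Horizontal colored lines are the medians of all regions in each table, computed with a small constant added to both RPM values, unlike the points. In pie1-5 the circles lie between -2.0 (GI) and -0.87 (FKF1) and the triangles between -0.57 and 0.03, around medians of -1.10 and -0.41.

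In clf-28, the 6 fitted differences ran from log2 -0.67 ± 0.21 (CDF1) to -0.04 ± 0.31 (LKP2), beside a median of -0.27 over 14539 paired regions, and none was called (edgeR, smallest adjusted p = 0.405, 1 at an unadjusted p below 0.05; 0% of all regions called). GI, FKF1 and LKP2 were below WT in the replicate 1 table and above it in the replicate 2 table, and COR27, COR28 and CDF1 were below in both. In pkl-1, FKF1 (0.06 ± 0.16), COR27 (-0.05 ± 0.13) and CDF1 (0.16 ± 0.13) had paired regions and none was called (edgeR adjusted p = 1.00, 0 at an unadjusted p below 0.05; 0.0101% of 9861 regions called). The COR28 regions of the pkl-1 tables were not paired, because the long region of the replicate 2 table overlapped another replicate 1 region by more (2800 against 1800 bp), and their ratios of 1.12 and 1.2 were not tested. For the other 3 genes the ratios of H2A.Z in pkl-1 ran from 0.859 to 1.15 across both tables. FKF1 and COR27 thus had H2A.Z levels close to WT in pkl-1 (for FKF1 41.8 and 44.8 RPM in the replicate 1 table, and 40.7 and 35.6 in the other), where their transcripts were 28.9-fold and 50.3-fold higher. The part of H2A.Z in these transcript levels was not tested.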

How the data were processed

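RNA-seq of 12 shoot libraries was used, with the region tables made from the 8 H3K27me3 and 8 H2A.Z ChIP libraries of the series. All H3K27me3 tables held the same WT library, so the other WT library of that mark did not enter. Anti-H3 and input samples were not analysed here. The authors deposited raw read counts per gene. Separate deposited tables give the authors' own edgeR log2 fold changes and FDR values per gene. For each ChIP library, the deposited SICER tables list regions with read counts, RPM (reads scaled to each library's total), their ratio between mutant and WT, and p-values that were not used, per the file headers. Trimmomatic, Bowtie2, edgeR, SICER, bedtools and deepTools and the build TAIR10 are named in the submitters' processing notes, whereas the tool that counted reads, with every version and setting, is not given in the sources used here.

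Counts were tested with edgeR 4.0.16 (R 4.3.3, limma 3.58.1) by its quasi-likelihood test after its filter on low counts, with TMM scaling, all 12 libraries in 1 fit and Benjamini-Hochberg adjustment over all tested genes. SE is the log2 fold change divided by the square root of the F statistic. CPM uses the TMM-scaled library sizes. H2A.Z regions of the replicate 1 and 2 tables were paired where each was the other's largest overlap and they shared at least 50% of the shorter region, and their reads tested with edgeR with region length and library total as offsets. A region was assigned to a gene it overlaps, from the RefSeq TAIR10.1 gene table, which was used to place and name genes; strand was not used and no sequences were used here. The tests were checked on simulated data. Tables and figures used Python 3.11.15 with pandas 2.3.3 and matplotlib 3.10.9.

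The 10 genes and the gene lists were chosen with earlier results of these data known, and the list of the 3 targeted genes was added later. Named were the 10 genes, from each list and mutant the called genes of smallest adjusted p, up to 4, CO, FT, CCA1, LHY and TOC1, and the 3 genes most like GI, FKF1, COR27 and COR28. CDF4, CBF1, CBF2, CBF3, COL1, COL2, COR15A, PRR7, marker genes and overlapping genes are named outside that rule. Alternatives were DESeq2 1.42.0, its size factors in edgeR, no filter, the 2 genotypes alone, organelle genes left out, the replicate number as a block, each library left out, regions paired at 80% overlap and TMM over regions. The p-values cover the spread between these libraries, and floors (3 reads) cover counting error only. The deviations of same-numbered libraries correlated at -0.05 to 0.13 over 18 pairs, so the numbers were not taken to pair libraries.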

Additional observations from a re-analysis of the deposited data

How the results depend on the processing

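GI, FKF1, COR27 and COR28 kept their direction in all 3 mutants under every alternative run. Single libraries left out were those of the 2 genotypes compared, and pie1-5 replicate 1. This gave 3 to 8 of the 10 genes called in pkl-1, 2 to 5 in clf-28 and 3 to 6 in pie1-5. The highest count each time came without pie1-5 replicate 1. Among all genes these fits called 412 to 1697 (1.97% to 8.13%), 169 to 1047 (0.808% to 5.02%) and 749 to 2011 (3.58% to 9.64%). Between mutants they called 0 to 2 of the 10 in pkl-1 against pie1-5, 0 to 2 in clf-28 against pie1-5 and 0 in pkl-1 against clf-28, and 1288 to 2347, 888 to 1957 and 208 to 1219 of all genes. With all libraries 821, 438 and 1500 genes were called against WT in pkl-1, clf-28 and pie1-5. DESeq2 called 1401 in pkl-1 and 830 in clf-28, and no filter on low counts 1763, 1174 and 2358. The 2 genotypes alone gave 1470, 940 and 513, and in pie1-5 0 of the 9 genes tested there, COR27 not passing the filter. In pkl-1 against pie1-5, 1 of the 10 was called by DESeq2, 1 with its size factors, 1 without organelle genes and 3 with no filter, and 1411 of all genes with the 2 genotypes alone. In clf-28 against pie1-5, no filter gave 2 of the 10 and 2747 of all genes, and the 2 genotypes alone 1176. In pkl-1 against clf-28, DESeq2 called 1074 genes, no filter 1332 and the 2 genotypes alone 1241. The cause of these shifts was not tested.

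Same-numbered libraries share only a number. With the replicate block 5, 4 and 6 of the 10 genes were called in pkl-1, clf-28 and pie1-5 and 1 in pkl-1 against pie1-5, against 3.99%, 1.89%, 7.41% and 10.8% of all genes. With the block CDF1 in pie1-5 turned to log2 -0.085, and with 1 library left out it ran from -0.75 (without pie1-5 replicate 1) to 0.47. ZTL ran from -0.29 to 0.20 in pkl-1, -0.27 to 0.16 in clf-28 and -0.21 to 0.24 in pie1-5 with 1 library left out, each highest without WT 2, and also turned without pkl-1 2 (0.0083) and pie1-5 3 (0.073). No turned value was called.

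H2A.Z calls were 0 for pkl-1 and clf-28 under all alternatives and 0 to 6 for pie1-5 (6 without pie1-5 2, where 95.1% of all regions were called). With TMM over regions FKF1 turned to 0.12 in clf-28 and 0.17 in pie1-5, and LKP2 to 0.21 and 0.019. With 1 ChIP library left out, FKF1 ran from -0.16 to 0.26 in pkl-1 (and to -0.0036 without the WT library of the replicate 1 table) and from -0.57 to 0.21 in clf-28. COR27 in pkl-1 ran from -0.19 to 0.086, and LKP2 in clf-28 from -0.48 to 0.30 (0.082 without that WT library). H3K27me3 gave no paired region over these genes and no alternative value. Taking in 1000 bases on either side of each gene, chosen after seeing the data, added no gene with H3K27me3. For H2A.Z that flank gave 8 and 7 genes in the replicate 1 and 2 tables of clf-28 (82.8% and 85.9% of all genes). It gave 8 and 7 in pie1-5 (82.8% and 84.6%), and 6 and 9 in pkl-1 (67% and 86.3%). ZTL was added in every table but the pkl-1 replicate 1 table, and CDF3 in none. Reads of COR27 (7 in WT), FKF1 (22) and COR28 (32) limit the precision of their folds.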
